A study of Mus musculus with 18 samples.

Results

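The calcium/calmodulin-dependent kinases (CaM kinases) and protein kinase C (PKC) were examined in the hippocampus of C57BL/6J male mice exposed to intermittent hypoxia treatment (IHT) or reared for 12 months. The 9 genes were Camk2a, Camk2b, Camk2d, Camk2g, Camk4, Camkk2, Prkca, Prkcb and Prkce, and every probe set annotated to one of them was taken. This gave 35 of the 45101 probe sets on the array, and 22 of the 35 had a mean signal above 20 over the 18 arrays and were tested, at least 1 for each gene. IH28D mice underwent IHT for 28 days and were set against Ctrl28 mice, which were kept for 28 days in normoxia. IH5DR2 mice underwent IHT for 5 days followed by 64 h of normoxia, IH5D mice underwent IHT for 5 days, and 12 m mice were reared for 12 months. These 3 groups were set against Ctrl mice, for which the labels give no further treatment. A day of IHT was 8 h of 3 min cycles, in which 1 min of nitrogen lowered the inspired oxygen to 5% and 2 min of room air returned it to 21%. Animals entered the experiments at 10 weeks. Each group had 3 arrays. The labels do not say whether each array held RNA of a separate mouse, so the p-values measure the spread between arrays, which may be technical.

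Both kinase families are read-outs of calcium in neurons. Calcium entering through NMDA receptors or calcium channels, or released from stores, binds calmodulin, and calcium-bound calmodulin activates CaMKII, a multi-subunit enzyme abundant at the postsynaptic density and known for its part in long-term potentiation. The same signal activates CaMKK2, which phosphorylates CaMKIV, a mainly nuclear kinase that acts on the transcription factor CREB. PKC is activated by diacylglycerol, which phospholipase C makes from a membrane lipid. PKCα and PKCβ need calcium as well, and PKCε does not.

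Values are MAS5 signals on the unlogged scale, in which probe sets of different genes cannot be compared for level, and changes are differences of mean log2 signal, first group minus second. A probe set rose or fell where the p-value of a limma model of all arrays, adjusted over the 22932 probe sets tested, was below 0.05. In RNA of whole tissue, fewer cells of a type and less RNA per cell cannot be told apart. The comparisons with Ctrl share its 3 arrays.

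Arrays of the groups differed in ways that touch these genes. The 3′ to 5′ gap, here the distance in log2 signal from 3′ to 5′ control probe sets averaged over Actb and Gapdh, grows as RNA is degraded. It was 0.33 to 0.42 in IH28D and 2.39, 0.82 and 0.97 in Ctrl28, and it was 0.62 to 0.86 in 12 m against 0.34 to 0.47 in Ctrl. Array 1 of Ctrl28 stood apart on this measure. Array 3 of the 12 m group had a summed signal of 3409 over the 4 neocortex markers (Rorb, Cux2, Tbr1, Lamp5), against 678 to 952 on the 15 arrays of the other groups, and of 592 over 3 striatal markers. Its sum over 4 markers of dentate granule cells was 177, against 589 to 931 on all other arrays. The 6 choroid plexus markers summed to 708 to 1752 in 12 m and 1849 to 19172 in Ctrl, and all 6 fell. Excitatory neuron markers (4 tested) summed to 2019 to 2817 in IH28D, 1754 to 2646 in Ctrl28, 2140 to 2314 in 12 m and 2458 to 2794 in Ctrl. Microglia markers (5 tested) summed to 1479 to 1898 in IH28D against 1991 to 3325 in Ctrl28, and to 1952 to 2132 in IH5DR2, 2008 to 2303 in IH5D and 1776 to 2037 in 12 m against 2342 to 2930 in Ctrl. Csf1r made up most of these sums (mean 2157 in Ctrl). P2ry12 was higher in IH5DR2, IH5D and 12 m (76.9, 71.6 and 130) than in Ctrl (40.8). No microglia marker passed in IH28D, IH5D or IH5DR2 against its control, and 1 rose and 1 fell in 12 m. The 5 astrocyte markers summed to 3607 to 4066 in IH28D against 4383 to 5058 in Ctrl28. Gja1 was the largest part (means of 2197 and 2856), and Gfap and Aqp4 were also lower in IH28D. Slc1a3 (830 against 774) and Aldh1l1 (193 against 178) were higher in IH28D, and none of the 5 passed there. The part of the marker differences in the kinase results was not tested, beyond the values given without an array, while the 3′ to 5′ gap was also entered in the model as a covariate.

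After 28 days of IHT 5 of the 22 kinase probe sets rose against Ctrl28 and 0 fell, and 7.79% of all probe sets tested passed in that comparison (5.62% rose and 2.17% fell). Those that rose belonged to Camk2a (2 probe sets), Camk2b, Camk2g and Prkce. After 5 days of IHT 2 rose and 0 fell, both of Prkcb, against 6.26% of all probe sets (5.59% rose and 0.663% fell). After 5 days of IHT with recovery 0 passed by limma, against 4.7% of all (3.88% rose and 0.82% fell), although 8 of the 22 had an unadjusted p below 0.05, where 27.2% of all probe sets did, and 6 did so by the methods' t-test. The count by limma was 5 without array 1 of Ctrl or without array 1 of Ctrl28, whose spread enters the same model, and 1 without array 3 of 12 m. In 12 m mice 7 rose and 2 fell, against 50.6% of all probe sets (26.5% rose and 24.1% fell), so the share of kinase probe sets that changed, 40.9%, lay below that of the array. IH5DR2 against IH5D gave 0 by limma, with 0 at an unadjusted p below 0.05 (3.82% of all probe sets), 1 by the methods' t-test without adjustment, and 0% of all probe sets. Ctrl28 itself differed from Ctrl in 5 kinase probe sets, 1 that rose and 4 that fell, against 32.9% of all probe sets (16.8% rose and 16.1% fell). That count was 10 without array 1 of Ctrl28, 9 without array 1 of Ctrl or array 3 of 12 m, 3 without array 2 of Ctrl or array 3 of Ctrl28, and 2 without array 3 of Ctrl or array 2 of Ctrl28. Over all genes 16% rose and 20% fell there with all arrays, and 23.6% and 29.2% without array 1 of Ctrl28. Shares of all probe sets are not given for counts without an array or by the methods' t-test. Such counts cannot show whether the kinases differed from the array.

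**Figure D1:**
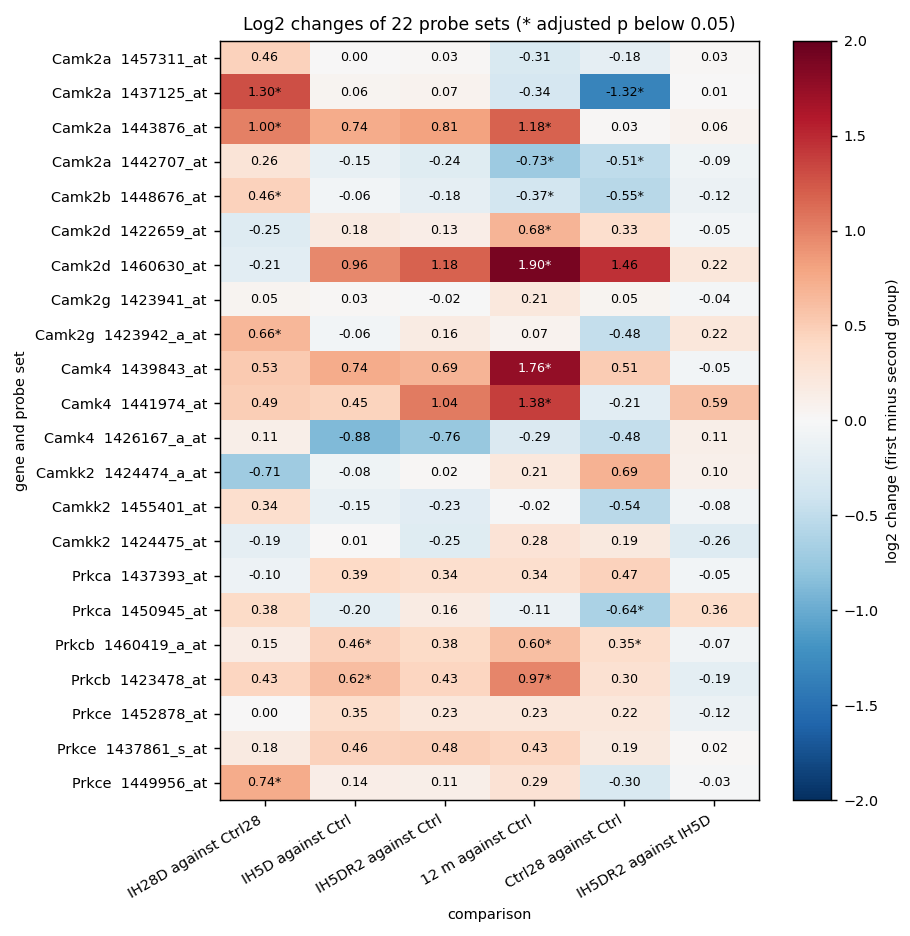
Log2 changes of the 22 kinase probe sets tested (rows) in 6 comparisons (columns), each the mean of the first group minus that of the second (n = 3 arrays each), with red for higher and blue for lower. Asterisks mark the 21 changes with an adjusted p below 0.05, and both Prkcb probe sets carry one in IH5D and in 12 m.

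Camk2a encodes the α subunit of CaMKII, the main one of forebrain neurons, and its 4 probe sets tested did not move together. Probe set 1437125_at gave signals of 1441, 1347 and 1914 in IH28D against 274, 979 and 934 in Ctrl28, and of 1556, 1520 and 1648 in Ctrl. The IH28D arrays all lay above the Ctrl28 arrays and overlapped those of Ctrl, and the lowest of all arrays was the Ctrl28 array with the largest 3′ to 5′ gap. The change against Ctrl28 was 1.30 ± 0.32 (SE, adjusted p = 0.021 by limma), and that of Ctrl28 against Ctrl was -1.32 ± 0.32 (adjusted p = 0.0054 by limma). Without that Ctrl28 array the change in IH28D was 0.70 (adjusted p = 0.0073 by limma) and that of Ctrl28 was -0.72 (adjusted p = 0.0014 by limma). With this gap entered as a covariate it was 0.11 in IH28D (adjusted p = 0.80 by limma), and against Ctrl in place of Ctrl28 it was -0.023 (adjusted p = 0.96 by limma), a comparison in which 31.5% of all probe sets passed. The covariate slope comes from differences within groups. Gaps ran from 0.82 to 2.39 in Ctrl28 and from 0.62 to 0.86 in 12 m, the next widest group. Values with this covariate therefore rest largely on array 1 of Ctrl28. Signals were 1650, 1548 and 1755 in IH5DR2 and 2117, 1380 and 1498 in IH5D, which overlapped Ctrl. In 12 m they were 1229, 1390 and 1130, all below the Ctrl arrays, with a change of -0.34 that did not pass (adjusted p = 0.39 by limma), and against Ctrl28 the 12 m group was higher by 0.98 (adjusted p = 0.045 by limma).

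**Figure D2:**
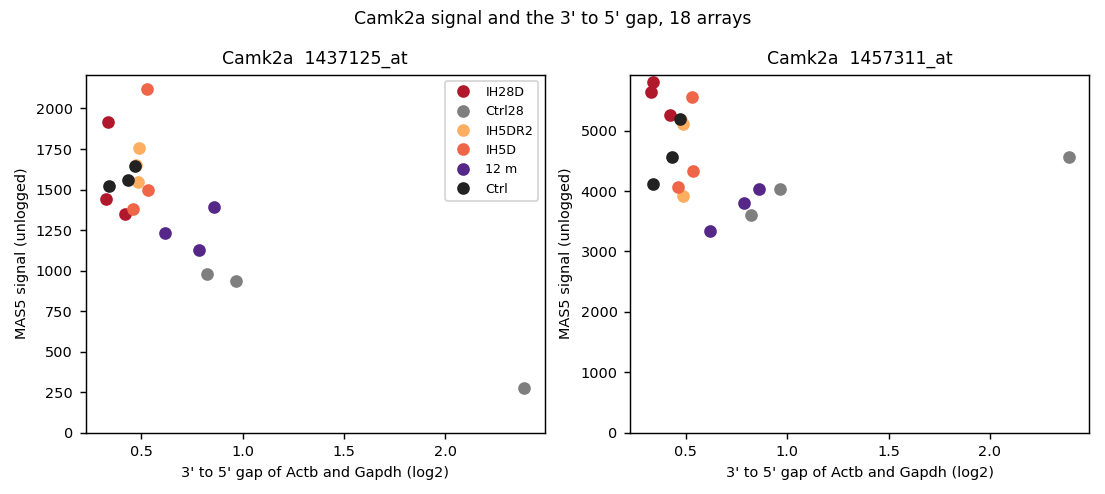
Unlogged MAS5 signal of 2 Camk2a probe sets (vertical axis) against the gap between 3′ and 5′ control probe sets (horizontal axis, log2), 1 point per array coloured by group. At 1437125_at the 3 Ctrl28 arrays have the lowest signals, 274 to 979, and gaps of 0.82 to 2.39, while at 1457311_at the array with the gap of 2.39 has a signal of 4564, the highest of the Ctrl28 group.

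Camk2a probe set 1443876_at averaged higher in every exposed or aged group than in its control. Its signals were 231, 280 and 295 in IH28D and 105, 148 and 153 in Ctrl28, a change of 1.0 ± 0.24 (SE, adjusted p = 0.018 by limma). They were 289, 383 and 236 in 12 m and 180, 89.3 and 139 in Ctrl, a change of 1.18 ± 0.24 (adjusted p = 0.00089 by limma). Neither pair of groups overlapped, and this was the only Camk2a probe set that rose in both comparisons. Without array 3 of the 12 m group the change there was 1.35 (adjusted p = 0.0010 by limma). With signals of 251, 204 and 233 in IH5DR2 and 274, 172 and 221 in IH5D, it gave changes against Ctrl of 0.81 and 0.74 that did not pass (adjusted p = 0.060 and 0.069 by limma).

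The brightest Camk2a probe set, 1457311_at, gave 5643, 5269 and 5808 in IH28D against 4564, 3606 and 4035 in Ctrl28, and 3336, 4031 and 3800 in 12 m against 4569, 4111 and 5195 in Ctrl. In both comparisons the groups did not overlap, with IH28D above its control and 12 m below it, and neither change passed (0.46 with adjusted p = 0.060 and -0.31 with adjusted p = 0.081 by limma). Both passed without the Ctrl28 array of the largest gap (0.55 with adjusted p = 0.017 and -0.31 with adjusted p = 0.049 by limma). Probe set 1442707_at gave 102, 65.1 and 63.4 in 12 m against 110, 127 and 137 in Ctrl and fell by 0.73 on the log2 scale (SE 0.19, adjusted p = 0.0045 by limma), and in Ctrl28, with 77.3, 84.6 and 101, it fell by 0.51 (adjusted p = 0.046 by limma). Over the 18 arrays the log2 signals of the 6 pairs of these probe sets had correlations of -0.25 to 0.48, a description of arrays that share tissue and group. In 12 m mice, then, 1 probe set of Camk2a rose, 1 fell and 2 did not pass.

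**Figure D3:**
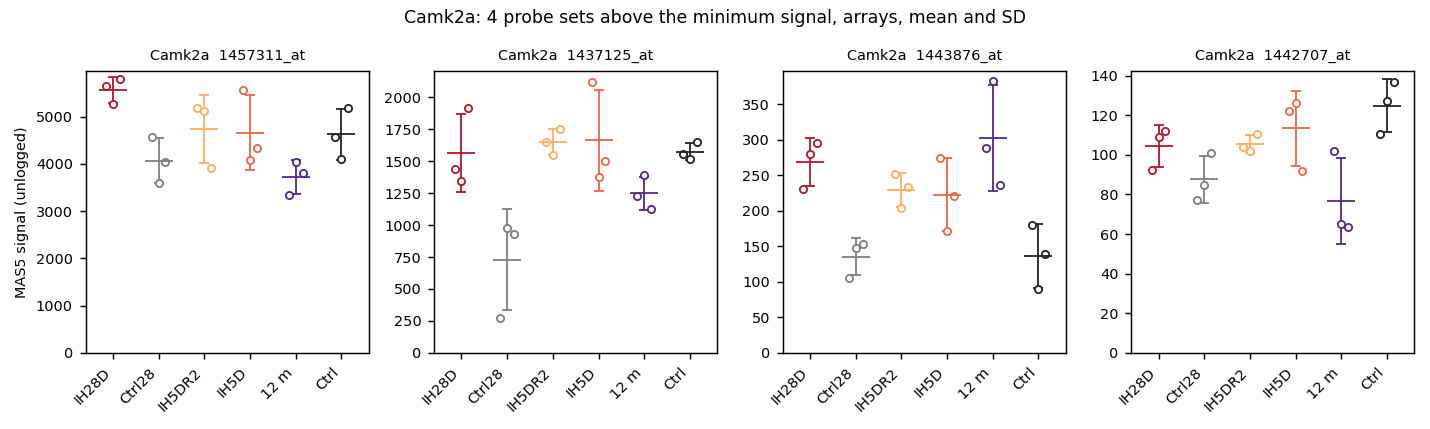
Unlogged MAS5 signals of the 4 Camk2a probe sets tested, 1 panel each, in the 6 groups, with open points for arrays, horizontal marks for means and bars for SD (n = 3). The 12 m arrays are highest on average at 1443876_at (302 ± 74.5, against 136 ± 45.2 in Ctrl) and lowest at 1442707_at (76.8 ± 21.7, against 125 ± 13.5 in Ctrl).

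Camk2b encodes the β subunit of CaMKII, which binds actin, and it had a single probe set, 1448676_at. Its signals were 1601, 1576 and 1863 in IH28D and 1294, 1176 and 1196 in Ctrl28, without overlap, a change of 0.46 ± 0.13 (SE, adjusted p = 0.041 by limma). It gave 1531, 1594 and 1075 in 12 m, and 1768, 1834 and 1759 in Ctrl. All 12 m arrays lay below all Ctrl arrays, and the gene fell by 0.37 on the log2 scale (SE 0.13, adjusted p = 0.025 by limma). Array 3 of the 12 m group was the lowest, and without it the change was -0.19 and did not pass (adjusted p = 0.17 by limma). Ctrl28 was lower than Ctrl by more than either, with a change of -0.55 (adjusted p = 0.0046 by limma), so that IH28D against Ctrl gave -0.093 (adjusted p = 0.60 by limma) and 12 m against Ctrl28, where 16.8% of all probe sets passed, gave 0.18 (adjusted p = 0.37 by limma). After 5 days of IHT the signals were 1617, 1487 and 1616 in IH5DR2 and 1840, 1665 and 1637 in IH5D, with changes against Ctrl of -0.18 and -0.06 that did not pass.

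A promoter window of Camk2b is shown because with all arrays this CaMKII gene rose in IH28D and fell in 12 m, and that of Prkcb because both of its probe sets rose together. The sequences are RefSeq windows of 300 bases on GRCm38.p6, in the direction of the gene. They run from 250 before to 50 after the start used for the window. They lie at chr11:6065699-6065998 (minus strand) for Camk2b and chr7:122288875-122289174 (plus strand) for Prkcb. The annotated span of Camk2b is 5969629 to 6066357, and that of Camk2d starts at 126595487 (plus strand). By these spans the windows of Camk2b and Camk2d (126596701-126597000) lie inside the gene. Whether a window holds the promoter in use was not tested. Capitals mark GC boxes (GGGCGG, on either strand), and where capitals run on beyond 6 letters the matches overlap by a base.
Camk2b: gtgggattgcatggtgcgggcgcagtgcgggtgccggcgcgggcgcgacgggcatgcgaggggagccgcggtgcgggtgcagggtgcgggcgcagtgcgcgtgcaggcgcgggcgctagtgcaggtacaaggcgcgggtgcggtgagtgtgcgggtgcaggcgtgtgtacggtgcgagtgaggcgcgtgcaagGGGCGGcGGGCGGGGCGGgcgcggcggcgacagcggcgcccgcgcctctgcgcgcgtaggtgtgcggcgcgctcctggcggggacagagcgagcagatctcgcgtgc
Prkcb: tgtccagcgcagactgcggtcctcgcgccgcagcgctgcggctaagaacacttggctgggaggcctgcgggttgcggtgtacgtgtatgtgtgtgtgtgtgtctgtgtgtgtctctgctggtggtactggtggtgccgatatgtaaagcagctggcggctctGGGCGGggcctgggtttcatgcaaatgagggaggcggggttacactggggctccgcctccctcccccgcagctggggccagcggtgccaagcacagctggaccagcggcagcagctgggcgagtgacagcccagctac
RefSeq windows were matched for 5 of the 9 genes, those of Camk2b, Camk2d, Camkk2, Prkca and Prkcb. A GC box lay in all 5, with 3 in Camk2b, 3 in Camk2d, 1 in Camkk2, 2 in Prkca and 1 in Prkcb, and in 35.7% of the 32851 windows of the table. The short core of the cAMP response element bound by CREB (TGACG, either strand) lay in 0 of the 5 and in 20.8% of all windows, the full element (TGACGTCA) in 0 and in 1.79%, and a TATA box (TATAAA) in 0 and in 13.6%. A match is a run of letters and not a known site, and windows of the 5 genes held 65.3% to 77.3% G and C.

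Camk2d and Camk2g encode the CaMKII subunits found in many tissues. Camk2d probe set 1460630_at gave 35.9, 31.3 and 42.2 in 12 m and 22.8, 15.7 and 2.56 in Ctrl. It rose by 1.90 ± 0.56 (SE, adjusted p = 0.010 by limma) without overlap, at signals close to the minimum of 20. Probe set 1422659_at gave 191, 131 and 185 in 12 m against 167, 69.3 and 98.3 in Ctrl, with overlap, a change of 0.68 ± 0.25 (SE, adjusted p = 0.031 by limma) that did not pass without array 3 of the 12 m group (0.60, adjusted p = 0.088 by limma). Neither passed in IH28D, where the changes were -0.21 and -0.25. Nor did either pass in 12 m against Ctrl28 in place of Ctrl (0.44 and 0.35, adjusted p = 0.63 and 0.35 by limma). A further Camk2d probe set, 1459457_at, which was not tested because its mean signal was 18.3, gave 23.9, 29.5 and 28.8 in 12 m and 8.97, 8.61 and 10.4 in Ctrl, and it was picked out after its values were seen.

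Camk2g probe set 1423942_a_at gave 529, 536 and 536 in IH28D and 450, 310 and 275 in Ctrl28, a change of 0.66 ± 0.20 (SE, adjusted p = 0.048 by limma). The 3 IH28D arrays lay within a narrow range above all Ctrl28 arrays. Against Ctrl in place of Ctrl28 the change was 0.18 (adjusted p = 0.49 by limma), and Ctrl28 against Ctrl gave -0.48 (adjusted p = 0.070 by limma). The other Camk2g probe set, 1423941_at, was brighter and flat, with 822, 860 and 906 in IH28D against 932, 819 and 760 in Ctrl28, a change of 0.05 (adjusted p = 0.89 by limma). In 12 m it gave 761, 801 and 1332, and the high array was array 3, the one with the high neocortex markers. Among the 10304 probe sets of single genes with a mean signal of at least 100, those whose log2 signal followed 1423941_at most closely over the 18 arrays were of Cux2, Ccl27a and Lamp5 (r = 0.89, 0.88 and 0.87), of which Cux2 and Lamp5 are neocortex markers in the list above.

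Camk4 gave the largest change of a bright kinase probe set. At 1439843_at the signals were 485, 560 and 1091 in 12 m and 234, 175 and 186 in Ctrl, a change of 1.76 ± 0.27 (SE, adjusted p = 0.00011 by limma), or 3.38-fold. All 12 m arrays lay above all Ctrl arrays, and array 3 was the highest. Without array 3 the change was 1.40 ± 0.25 (adjusted p = 0.00052 by limma), and against Ctrl28 in place of Ctrl it was 1.25 (adjusted p = 0.0059 by limma). The exposed groups also lay above Ctrl, with 366, 506 and 359 in IH28D, 336, 334 and 284 in IH5DR2 and 369, 283 and 339 in IH5D. The changes against Ctrl were 0.69 in IH5DR2 and 0.74 in IH5D (adjusted p = 0.12 and 0.097 by limma), and IH28D, with 0.53 against the 185, 309 and 388 of Ctrl28, did not pass either (adjusted p = 0.25 by limma). Against Ctrl in place of Ctrl28 it passed, with 1.04 (adjusted p = 0.011 by limma).

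A second Camk4 probe set, 1441974_at, gave 28.0, 75.4 and 89.6 in 12 m and 29.7, 15.9 and 22.8 in Ctrl. Its change of 1.38 ± 0.45 (SE, adjusted p = 0.018 by limma) rested on an overlapping pair of groups and did not pass without array 3 (1.06, adjusted p = 0.087 by limma). The third, 1426167_a_at, gave 28.5, 19.6 and 43.8 in 12 m against 34.6, 32.7 and 39.5 in Ctrl (-0.29, adjusted p = 0.48 by limma). The genes whose log2 signal followed 1439843_at most closely over the arrays were Cacnb4, a calcium channel subunit, Elavl4, a neuronal RNA-binding protein, and Scn1a, a sodium channel (r = 0.98, 0.97 and 0.96).

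Camkk2, the kinase upstream of CaMKIV, passed in none of the 6 comparisons at any of its 3 probe sets with all arrays. At 1424474_a_at the signals were 546, 512 and 711 in IH28D and 1293, 826 and 818 in Ctrl28, where the highest was array 1, and the change of -0.71 did not pass (adjusted p = 0.11 by limma) although the groups did not overlap. In 12 m the values were 495, 517 and 1246, with array 3 highest, against 598, 507 and 682 in Ctrl, and the change was 0.21 (adjusted p = 0.53 by limma). Without array 3 of 12 m, 1424474_a_at fell in IH28D against Ctrl28 (-0.71, adjusted p = 0.018 by limma) and rose in Ctrl28 against Ctrl (0.69, adjusted p = 0.0061 by limma), and 1455401_at fell in Ctrl28 (-0.54, adjusted p = 0.012 by limma). The last also passed without array 1 of Ctrl28 (-0.61, adjusted p = 0.034 by limma). The arrays with the highest signals at 1424474_a_at were the pair that stood apart on the 3′ to 5′ gap and on the neocortex markers.

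**Figure D4:**
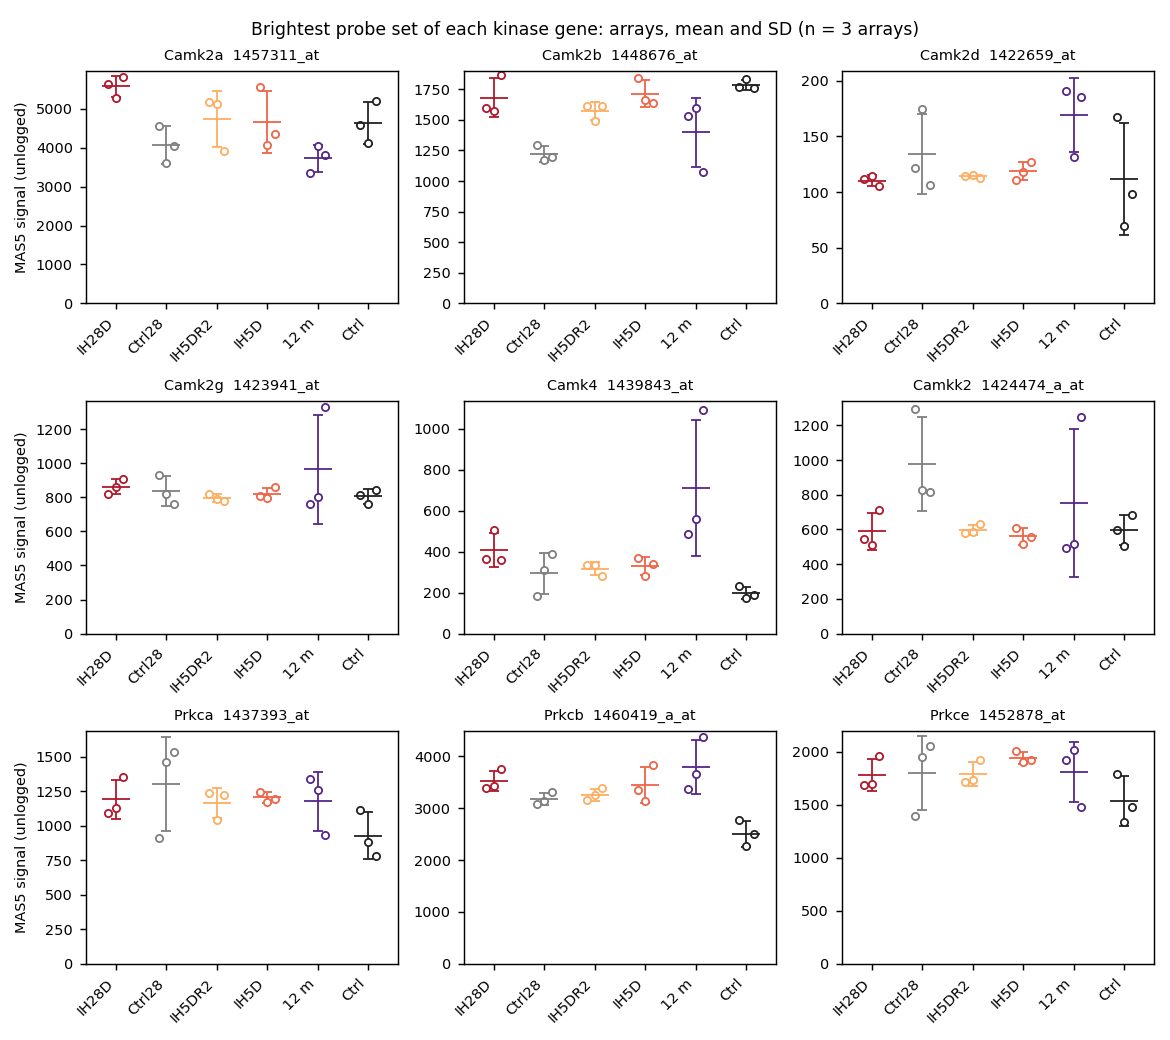
Unlogged MAS5 signals of the brightest probe set of each of the 9 kinase genes in the 6 groups, with open points for arrays, horizontal marks for means and bars for SD (n = 3). Camk4, Prkcb, Prkca and Prkce are lowest in Ctrl (means 199, 2507, 928 and 1534 there, against 712, 3803, 1177 and 1805 in 12 m), and a single 12 m array lies far above its group at Camk2g, Camk4 and Camkk2.

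Prkcb, the conventional PKCβ, was the kinase gene whose probe sets agreed best, with r = 0.88 between their log2 signals over 18 arrays. At 1460419_a_at the signals were 3372, 3657 and 4381 in 12 m, 3360, 3142 and 3835 in IH5D and 2765, 2263 and 2493 in Ctrl. All 12 m and IH5D arrays lay above all Ctrl arrays, where groups did not overlap at 61.3% and 40% of all probe sets, and the changes were 0.60 ± 0.12 in 12 m (SE, adjusted p = 0.00060 by limma) and 0.46 ± 0.12 in IH5D (adjusted p = 0.033 by limma). At 1423478_at the signals were 1265, 1434 and 1759 in 12 m, 1013, 1138 and 1324 in IH5D and 966, 728 and 600 in Ctrl. Again the groups did not overlap, and the changes were 0.97 ± 0.18 in 12 m (adjusted p = 0.00034 by limma) and 0.62 ± 0.18 in IH5D (adjusted p = 0.045 by limma). With the replicate number as a block over all 18 arrays the IH5D change of 1423478_at did not pass (adjusted p = 0.062 by limma). This left 1 kinase probe set in that comparison. A paired fit of IH5D and Ctrl alone was not run. The IH5D count was 0 without array 1 or 3 of IH5D or array 2 or 3 of Ctrl, 4 without array 1 of Ctrl, 6 without array 1 of Ctrl28, and 1 without array 2 of IH5D, array 1 or 2 of 12 m or any array of IH5DR2 or IH28D. Both 12 m changes against Ctrl passed without array 3 of that group (0.49 and 0.84, adjusted p = 0.0042 and 0.0024 by limma). Against Ctrl28 in place of Ctrl the 12 m change at 1460419_a_at was 0.25 and did not pass (adjusted p = 0.14 by limma). At 1423478_at it was 0.67 and passed (adjusted p = 0.016 by limma). Without array 3 of 12 m neither passed against Ctrl28 (0.15 and 0.54, adjusted p = 0.46 and 0.076 by limma).

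In IH5DR2, 64 h after the last exposure, Prkcb gave 3154, 3249 and 3382 at 1460419_a_at and 993, 982 and 1054 at 1423478_at. All lay above the Ctrl arrays, where 39.4% of all probe sets did not overlap, with changes of 0.38 and 0.43 that did not pass (adjusted p = 0.062 and 0.13 by limma), and the difference from IH5D was -0.07 and -0.19. In IH28D the signals were 3382, 3434 and 3746 at 1460419_a_at against 3082, 3132 and 3314 in Ctrl28. At 1423478_at they were 1181, 1250 and 1316 in IH28D against 730, 1081 and 1003 in Ctrl28. The groups did not overlap at either, and the changes of 0.15 and 0.43 did not pass (adjusted p = 0.47 and 0.14 by limma). Ctrl28 itself was higher than Ctrl at 1460419_a_at by 0.35 (adjusted p = 0.031 by limma), and against Ctrl the IH28D changes were 0.49 and 0.73 at the 2 probe sets (adjusted p = 0.0062 and 0.0066 by limma). The closest genes over the arrays were Dlg2, a synaptic scaffold, Foxp1, a transcription factor, and Kcna1, a potassium channel (r = 0.95, 0.94 and 0.93).

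Prkca, the conventional PKCα, passed in none of the 3 IHT comparisons with a control, nor in 12 m with all arrays. At 1437393_at it gave 1340, 1256 and 934 in 12 m and 1116, 882 and 784 in Ctrl, a change of 0.34 (adjusted p = 0.13 by limma) that passed without array 3 of 12 m (0.50, adjusted p = 0.045 by limma). The 3 IH5D arrays, at 1246, 1174 and 1195, lay above those of Ctrl, with a change of 0.39 (adjusted p = 0.18 by limma). Its dimmer probe set, 1450945_at, fell in Ctrl28 against Ctrl by 0.64 on the log2 scale (adjusted p = 0.029 by limma). The brighter 1437393_at went the other way there, by 0.47, and did not pass (adjusted p = 0.061 by limma). It rose without array 3 of 12 m (adjusted p = 0.047 by limma) or array 1 of Ctrl28 (0.71, adjusted p = 0.0012 by limma). Log2 signals of the Prkca probe sets had r = -0.38 over the 18 arrays.

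Prkce, the calcium-independent PKCε, rose in IH28D at its dimmest probe set tested. At 1449956_at the signals were 97.8, 110 and 133 in IH28D and 64.8, 59.8 and 79.2 in Ctrl28, a change of 0.74 ± 0.21 (SE, adjusted p = 0.035 by limma) without overlap, and against Ctrl the change was 0.44 (adjusted p = 0.11 by limma). The brighter 1452878_at gave 1688, 1698 and 1954 in IH28D against 1397, 1952 and 2049 in Ctrl28, a change of 0.00075 (adjusted p = 0.999 by limma). The bright probe sets of Prkca and Prkce followed each other over the 18 arrays (r = 0.90), as did those of Camk4 and Prkcb (r = 0.83), while Camk2b and Camkk2 ran opposite (r = -0.71).

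The 5 changes in IH28D did not all hold when arrays were left out: the count was 0 without array 3 of IH28D, 1 without array 2 of IH28D, 2 without array 2 of Ctrl28, and 6 without array 1 of Ctrl28 or array 3 of 12 m. It was 3 without array 1 of IH28D, array 3 of Ctrl28, array 2 or 3 of IH5D or of Ctrl, or any array of IH5DR2. With the 3′ to 5′ gap as covariate, whose slope rests largely on array 1 of Ctrl28, Camk2g passed (1.09, adjusted p = 0.0043 by limma). Besides Camk2a 1437125_at the changes of Camk2a 1443876_at (0.74), Camk2b (0.53) and Prkce (0.71) did not (adjusted p = 0.15, 0.051 and 0.12 by limma). Read without a test, 10 of the 22 probe sets had groups that did not overlap in IH28D against Ctrl28, where 23% of all probe sets did, and 9 in 12 m against Ctrl, where 61.3% did. The median change of the 22 was 0.30 in IH28D and 0.26 in 12 m, beside 0.04 and -0.08 over all probe sets tested.

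The change in IH28D was set against that in 12 m by a test of the difference in the same model, and 6 of the 22 probe sets passed, against 30.5% of all (15.4% in the positive and 15% in the negative direction), and 13 did without array 1 of Ctrl28. Camk2a (1437125_at, 1442707_at and 1457311_at) and Camk2b (1448676_at) had the more positive change in IH28D, by 1.63, 0.99, 0.77 and 0.83. Camk4 (1439843_at) and Prkcb (1460419_a_at) had the lower one, by -1.23 and -0.45, and these 2 did not pass without array 3 of 12 m (adjusted p = 0.057 and 0.12 by limma). Each difference also subtracts the change of Ctrl28 against Ctrl. That was -1.32, -0.51, -0.18 and -0.55 at the Camk2a and Camk2b probe sets, 0.51 at Camk4 and 0.35 at Prkcb. The change in IH28D differed from that in IH5D at 0 kinase probe sets by limma, where 7.12% of all probe sets passed, with 4 of the 22 at an unadjusted p below 0.05, where 23.1% of all probe sets were, at 6 without array 1 of Ctrl28, and at 1 without array 2 of Ctrl28 or array 3 of 12 m.

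Other genes of these pathways were counted from 6 lists of kinases, calcium handling, diacylglycerol signaling, phosphatases and substrates, 91 genes of which 76 were tested at their brightest probe set. In IH28D 9 rose and 0 fell, where 5.71% of all genes rose and 2.14% fell. The 24 substrates and anchors held 5 of the 9, among them Dlg4, which encodes the scaffold PSD-95, with signals of 868 ± 129 in IH28D and 453 ± 62.1 in Ctrl28 (SD, change 0.94, adjusted p = 0.00055 by limma), the CREB coactivator Crtc1 (change 0.98) and the synaptic vesicle protein Syn1 (change 0.87). Of 8 calcium release genes 2 rose, the ryanodine receptor Ryr1 (1.49) and the store-operated channel Orai1 (0.88). Ryr1 signals were close to the minimum of 20, at 43.9 ± 8.74 in IH28D and 16.3 ± 6.95 in Ctrl28 (SD). The other list genes that rose were Pnck, a CaM kinase, and Ppp1ca, a catalytic subunit of protein phosphatase 1. Dlg4, Syn1, Crtc1, Orai1, Pnck and Ppp1ca fell in Ctrl28 against Ctrl, with changes of -1.24, -1.34, -1.11, -1.29, -1.17 and -0.89, and over all lists 13 of the 76 genes rose and 21 fell there, where 16% and 20% of all genes did. Without array 1 of Ctrl28 17 list genes rose and 2 fell in IH28D, where 11% and 3.77% of all genes did.

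In 12 m 23 of the 76 genes rose and 24 fell, where 21.3% of all genes rose and 30.6% fell, and without array 3 the counts were 22 and 22. Upstream of PKC, 4 of 11 rose and 4 fell. Gnaq, the G protein subunit that activates phospholipase Cβ, gave 1306 ± 54.3 in 12 m and 588 ± 121 in Ctrl (SD, change 1.17, adjusted p = 2.1e-05 by limma), Plcb1, a phospholipase Cβ, changed by 1.40 and Dgkh, a diacylglycerol kinase, by 1.46. Gnaq rose against Ctrl in IH5D (0.73), IH5DR2 (0.65) and Ctrl28 (0.78) too, and was the one list gene that passed in IH5DR2. Of 12 phosphatase genes 6 rose and 4 fell, and those that rose included Ppp3ca (1.0) and Ppp3cb (0.63), the catalytic subunits of calcineurin, and Ppp1cb (0.99). Ppp3ca gave 4050 ± 239 in IH5D and 2609 ± 109 in Ctrl, and rose there too (0.63, adjusted p = 0.032 by limma).

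Of the 24 substrates and anchors 3 rose and 8 fell in 12 m. Creb1, the CaMKIV substrate CREB, gave 275 ± 19.6 in 12 m and 88.2 ± 9.79 in Ctrl (SD, change 1.65, adjusted p = 0.00027 by limma), and Akap5, which anchors PKA, PKC and calcineurin, changed by 1.59, whereas Dlg4 gave 496 ± 60.1 in 12 m and 1064 ± 34.7 in Ctrl and fell by 1.11. Of 9 other PKC relatives 3 rose, Pkn2 (1.75), Prkd3 (0.85) and Prkci (0.43), and 2 fell, Prkch (-0.93) and Prkcd (-1.33). Prkcd had signals of 68.1 ± 28.9 in 12 m and 163 ± 42.8 in Ctrl. Prkcd also marks thalamic neurons, and it was the 1 of the 4 thalamus and habenula markers that passed in 12 m. Of 12 other genes of the CaM kinase family and its inhibitors 3 rose and 4 fell. Camk1d (0.71), Dclk1 (0.59) and Cask (1.27) rose, and the kinase Pnck (-1.10), the CaMKII inhibitor Camk2n2 (-0.79), Camkv (-0.69) and Dapk1 (-0.46) fell.

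**Figure D5:**
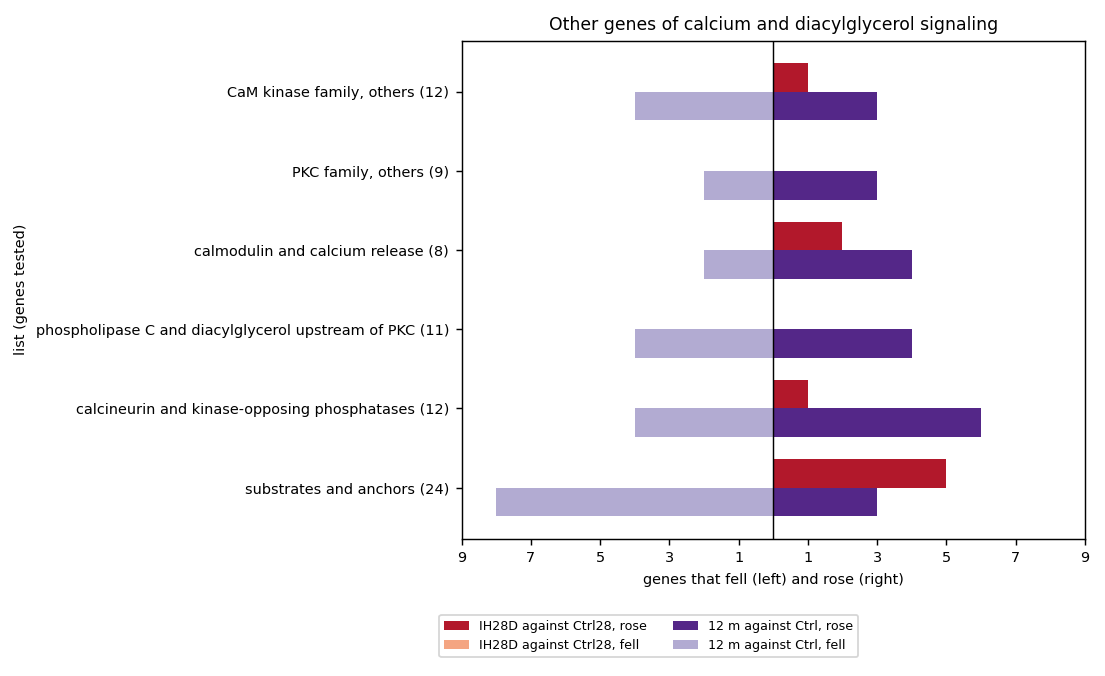
Number of genes that rose (bars to the right) and fell (bars to the left) in 6 lists of calcium and diacylglycerol signaling, with the genes tested in parentheses, for IH28D against Ctrl28 (red) and 12 m against Ctrl (violet). In IH28D 9 genes rose and 0 fell over all lists, and in 12 m 23 rose and 24 fell.

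The 13 kinase probe sets that were not tested had mean signals of 1.47 to 18.3, and belonged to Camk2a (2), Camk2d (5), Camk4 (2), Camkk2 (1), Prkca (1), Prkcb (1) and Prkce (1). The 22 tested ran from 23.8 to 4564. Mean signals were highest in 12 m at 10 of these 22 and lowest in Ctrl28 at 8 and in Ctrl at 7, and most neighbours in each order overlapped: at 16 of the 22 no 2 neighbouring groups were apart.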

How the data were processed

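Total RNA of mouse hippocampus was hybridized to Affymetrix mouse genome arrays, 18 arrays in 6 groups of 3. The authors computed and normalized signals with MAS5, and the deposited table holds log2 signals. The design had assumed unlogged signals, so log2 values entered the tests as they stood and were raised to unlogged signals for levels and the minimum. Array medians ran from 18.1 to 24.3, and the number of arrays limits the precision. Groups and replicate numbers came from the sample labels. The 9 kinase genes and the lists were chosen with earlier results of these data known.

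Of 45101 probe sets, 64 of them controls of the manufacturer, the 22932 whose unlogged signal averaged above 20 were tested. Genes were named from the platform annotation, for the 34945 probe sets of a single gene. limma 3.58.1 (R 4.3.3) was fitted with group means, an intensity trend in the moderated variance and 12 residual degrees of freedom, and gave changes, standard errors and p-values, adjusted by the method of Benjamini and Hochberg. It was tested on simulated data. An exact permutation test of 3 against 3 arrays cannot go below 0.1 and was not used.

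Beyond the markers, named genes were the 9 kinases, the 3 list genes of smallest p in each comparison, and the 3 genes most like each kinase. Camk2n2 and Camkv, which passed in 12 m, were named as well. The lists were other CaM kinase family genes with the CaMKII inhibitors, other PKC relatives, calmodulin and calcium release, phospholipase C and diacylglycerol, phosphatases, and substrates and anchors. Whether arrays of one number pair was checked on their deviations from the group means. Every correlation was over 0.1 in IH5D against Ctrl (0.16, 0.23 and 0.17). The number was taken to pair those arrays by the data, since the labels name no shared batch. No other comparison met this cut at every number. Alternatives were no minimum signal, a replicate block, median centring, quantile normalization, no variance trend, a covariate for the 3′ to 5′ gap, the compared groups alone, the methods' t-test, another control, and each array left out. Sequences were RefSeq windows of GRCm38.p6.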

Additional observations from a re-analysis of the deposited data

Results flagged for a closer look

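At 6 kinase probe sets the change in IH28D against Ctrl28 differed from that in 12 m against Ctrl by the test of the difference in the limma model. That is 6 of 22 (27.3%), and 30.5% of all probe sets passed the same test, so the share of the kinases lay near that of the array. At Camk2a probe set 1437125_at the changes were 1.30 and -0.34, which differ by 1.63 ± 0.46 (SE, adjusted p = 0.013). At 1442707_at of the same gene they were 0.26 and -0.73 and differ by 0.99 (adjusted p = 0.011), and at 1457311_at they were 0.46 and -0.31 and differ by 0.77 (adjusted p = 0.010). Camk2b probe set 1448676_at changed by 0.46 and -0.37, a difference of 0.83 ± 0.19 (adjusted p = 0.0037). At Camk4 probe set 1439843_at the changes were 0.53 and 1.76, a difference of -1.23 (adjusted p = 0.024), and at Prkcb probe set 1460419_a_at they were 0.15 and 0.60, a difference of -0.45 (adjusted p = 0.047). Each difference also subtracts the change of Ctrl28 against Ctrl. That was -1.32, -0.51, -0.18, -0.55, 0.51 and 0.35 at the 6 probe sets in this order. Against Ctrl in place of Ctrl28 the IH28D changes were -0.023, -0.26, 0.27, -0.093, 1.04 and 0.49 in the same order. The part of the controls in these differences was not tested. Without array 3 of the 12 m group the Camk4 and Prkcb differences were -0.87 and -0.34 and did not pass (adjusted p = 0.057 and 0.12), and without array 1 of Ctrl28 all 6 passed, with 1.03 at Camk2a 1437125_at.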

How the results depend on the processing

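Of the 21 changes called in the 6 comparisons none stayed past the threshold under every alternative: of 308 values 182 kept direction and call, 123 kept the direction and did not pass, and 3 reversed. The reversed values came with the other control: Camk2a 1437125_at gave -0.023 and Camk2b -0.093 in IH28D against Ctrl, and Camk2b 0.18 in 12 m against Ctrl28. Counts of kinase probe sets in IH28D (5 in the report) were 2 with no minimum signal, 3 with the replicate block, 2 with median centring, 3 with no variance trend, 3 with the 3′ to 5′ gap as covariate, and 0 with the compared groups alone. In IH5D (2) the counts were 0 with no minimum signal, 1 with the replicate block, 0 with median centring, 1 with quantile normalization, 0 with no variance trend and 6 with the gap. In IH5DR2 (0) they were 5 with the gap and 4 with the compared groups alone. In Ctrl28 against Ctrl (5) they were 2 with no minimum signal, 3 with quantile normalization and 1 with the compared groups alone. The difference of IH28D and IH5D (0) gave 5 with the gap. All counts with the gap rest largely on array 1 of Ctrl28, which set most of the covariate slope. In 12 m against Ctrl (9) the count was 5 with Ctrl28 as control, and the split of 7 that rose and 2 that fell was 6 and 3 with median centring and 8 and 1 with quantile normalization. The methods' t-test after adjustment gave 0 in IH28D, IH5D, 12 m and Ctrl28 against Ctrl, where 5, 3, 6 and 3 had an unadjusted p below 0.05. The cause was not tested. Shares of all probe sets are not given beside the counts under the alternatives. These counts therefore cannot show whether the kinases differed from the array.

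With each array left out, counts ran from 0 to 6 in IH28D, 0 to 6 in IH5D, 0 to 5 in IH5DR2, 6 to 12 in 12 m and 2 to 10 in Ctrl28 against Ctrl, were 0 to 0 in IH5DR2 against IH5D, and ran from 0 to 6 and 4 to 13 for the differences of IH28D from IH5D and from 12 m. Shares of all probe sets are not given beside these counts. Over all genes 21.3% rose and 30.6% fell in 12 m with all arrays, and 23.5% and 36.7% without array 1 of Ctrl28. In Ctrl28 against Ctrl the count was 2 without array 3 of Ctrl or array 2 of Ctrl28, 9 without array 1 of Ctrl or array 3 of 12 m, and 10 without array 1 of Ctrl28. The cut of 0.1 was met at all 3 replicate numbers only in IH5D against Ctrl. In IH5DR2 the correlations were 0.0080, 0.14 and 0.13 against IH5D, and 0.016, 0.054 and 0.16 against Ctrl. The choroid plexus sum was lowest on array 3 in Ctrl, IH5D, IH5DR2 and IH28D, but not in Ctrl28 or 12 m. The numbers may therefore hold shared structure beyond IH5D, which was not tested. The block took from the calls Camk2b and Camk2g in IH28D (adjusted p = 0.057 for both) and Camk2a 1442707_at in Ctrl28 (adjusted p = 0.064), by limma. The pathway counts without single arrays were chosen after seeing the data. Signals near the minimum of 20, as of Camk2d 1460630_at, limit what can be read.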
